A study of Mus musculus with 10 samples.

Results

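The order of transcript signals was described in intact mouse oocytes at the metaphase II (MII) arrest of meiosis, at which ovulated eggs await sperm, from the 3 MII oocyte arrays, replicates 2 to 4, of a series of 10. The members were the probe sets that the platform annotation assigns to exactly 1 gene, 34945 of the 45101 on the array, and they cover 18193 genes. Each gene was given the value of its brightest such probe set, the one with the highest mean log2 intensity over the 3 arrays, and genes were then ordered by that mean. No group was compared with another.

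The series also holds 4 arrays of cytoplasts and 3 of spindle-chromosome complexes (SCC), separated by microsurgery, which are not used here. The oocytes came from B6D2F1 females, an F1 hybrid strain, given equine chorionic gonadotropin (eCG) and, 48 h later, 5 IU of human chorionic gonadotropin (hCG), and had matured in the animal. Cumulus cells were taken off with hyaluronidase. The labels state neither the age of the mice nor how many oocytes or females went into a sample, and call the 3 samples biological replicates without saying whether they came from separate collections, so the spread between them may be partly technical. Up to 50 ng of total RNA per sample was amplified repeatedly before 10 µg of labelled cRNA was hybridised to a 1-colour Affymetrix 3′ expression array.

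A fully grown oocyte is transcriptionally silent, so the RNA of an MII oocyte is a store laid down during growth. Much of this store is kept with short poly(A) tails in ribonucleoprotein particles, and is translated or degraded in steps during meiotic maturation, after fertilisation and up to activation of the embryonic genome. The store is known for transcripts of the egg coat, of the arrest at metaphase II and of maternal-effect genes, which the embryo needs before its own genome is active.

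Promoter sequences of the genes at the top of the order are shown because they cover both extremes of promoter composition among the brightest genes. Of the 30 genes with the highest signal, 25 had a promoter in the RefSeq table of the GRCm38.p6 assembly, which gives 250 bases before and 50 after a transcription start. The windows with the fewest CpG dinucleotides were those of Obox5 (chr7:15750120-15750419, plus strand, 1 CpG), Obox2 (chr7:15388601-15388900, plus strand, 2 CpG) and Zbed3 (chr13:95323355-95323654, plus strand, 4 CpG). Those with the most were of Spin1 (chr13:51100630-51100929, plus strand, 51 CpG), Yap1 (chr9:8004547-8004846, minus strand, 49 CpG) and Lsm14b (chr2:180024737-180025036, plus strand, 40 CpG). Each is written 5′ to 3′ on the strand of the gene, with every CpG in capitals.
Obox5: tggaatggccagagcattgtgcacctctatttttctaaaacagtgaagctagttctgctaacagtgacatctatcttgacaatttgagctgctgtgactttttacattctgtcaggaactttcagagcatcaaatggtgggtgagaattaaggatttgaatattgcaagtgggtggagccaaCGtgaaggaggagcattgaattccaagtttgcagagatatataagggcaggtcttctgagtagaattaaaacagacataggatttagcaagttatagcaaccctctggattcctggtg
Obox2: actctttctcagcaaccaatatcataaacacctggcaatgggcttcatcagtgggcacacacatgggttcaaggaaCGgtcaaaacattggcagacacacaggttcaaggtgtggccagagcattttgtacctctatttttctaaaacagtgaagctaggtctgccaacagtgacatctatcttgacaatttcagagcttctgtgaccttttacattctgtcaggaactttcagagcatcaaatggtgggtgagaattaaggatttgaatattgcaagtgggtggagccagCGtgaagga
Zbed3: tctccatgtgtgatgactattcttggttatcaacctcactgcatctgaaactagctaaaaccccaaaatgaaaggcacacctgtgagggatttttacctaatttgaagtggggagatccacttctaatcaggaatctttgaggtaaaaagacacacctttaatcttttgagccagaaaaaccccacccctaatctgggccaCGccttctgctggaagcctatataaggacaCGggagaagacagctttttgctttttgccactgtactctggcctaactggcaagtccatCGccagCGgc
Spin1: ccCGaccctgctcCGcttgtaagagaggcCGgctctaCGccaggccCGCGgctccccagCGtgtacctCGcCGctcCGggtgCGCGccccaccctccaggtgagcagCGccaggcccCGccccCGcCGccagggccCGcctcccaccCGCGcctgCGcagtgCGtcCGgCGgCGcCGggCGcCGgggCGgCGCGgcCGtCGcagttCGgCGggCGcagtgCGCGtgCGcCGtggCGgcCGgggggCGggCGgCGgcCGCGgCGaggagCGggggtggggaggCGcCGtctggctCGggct
Yap1: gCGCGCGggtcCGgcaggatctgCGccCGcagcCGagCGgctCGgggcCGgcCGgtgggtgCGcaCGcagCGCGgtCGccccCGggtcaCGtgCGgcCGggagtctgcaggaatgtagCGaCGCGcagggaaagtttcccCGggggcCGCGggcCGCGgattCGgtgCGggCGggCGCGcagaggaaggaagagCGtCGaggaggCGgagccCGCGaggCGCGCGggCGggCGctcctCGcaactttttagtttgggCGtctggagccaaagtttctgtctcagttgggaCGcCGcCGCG
Lsm14b: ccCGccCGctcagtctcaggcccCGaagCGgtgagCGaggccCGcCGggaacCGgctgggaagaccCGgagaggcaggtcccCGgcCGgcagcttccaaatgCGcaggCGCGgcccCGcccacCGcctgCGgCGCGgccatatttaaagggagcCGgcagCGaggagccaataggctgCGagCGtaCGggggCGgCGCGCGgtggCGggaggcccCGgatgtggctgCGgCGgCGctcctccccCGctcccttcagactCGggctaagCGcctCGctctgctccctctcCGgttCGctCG
Obox2 and Obox5, 2 oocyte-specific homeobox genes, shared an exact run of 82 bases in these windows, at bases 209 to 290 of the Obox2 window and 100 to 181 of the Obox5 window. No other pair among the 6 shared a run longer than 11 bases. Spin1 and Zbed3 had 3 windows each in the table, with 2 to 51 and 4 to 15 CpG. The first listed window is shown for each.

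The order describes hybridisation signal, not copies per oocyte. Brightness depends on a probe set's affinity and on its distance from the 3′ end as well as on the transcript, so neighbours in the order are not ranked by transcript number, and a gene that is not above background is not shown to be absent. Signals are relative, because a fixed amount of amplified cRNA went on each array. Background on an array was taken as the 95th percentile of 281 probe sets of 170 genes of 7 other tissues, which came to intensities of 78.2, 99.1 and 107.5 on replicates 2, 3 and 4. Below, 3 values of a gene are always in that order, and ± is the SD of log2 intensity over the 3 arrays.

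The 3 arrays gave nearly the same order. Pearson's r of log2 intensity over the 18193 genes was 0.984 between replicates 2 and 3, 0.993 between 2 and 4 and 0.986 between 3 and 4, and these points share probe sets and their affinities. Replicate 3 stood apart at the bright end. Its highest intensity was 17504, against 32535 and 32029, and its controls spiked in at hybridisation averaged log2 10.12 over 9 probe sets, against 11.34 and 11.55. It was the lowest array for all 30 genes at the top. The part of hybridisation in these values was not tested. After quantile normalization of the 3 arrays, 29 of the 30 genes were still among the 30 highest. Probe sets at the 3′ end of actin were brighter than those at the 5′ end by log2 3.82, 3.33 and 4.42, and those of Gapdh by 3.36, 3.17 and 3.23.

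Genes were placed in classes by background and by a mean log2 intensity of 10 (intensity 1024). Of the 18193 genes, 4222 (23.2%) were above background on all 3 arrays, and 1201 of these (6.6% of all) had a mean of at least 10 and are called abundant. The other 3021 are called moderate. Another 1197 genes were above background on 1 or 2 arrays, and 12774 (70.2%) on none. The median log2 intensity was 11.09 for abundant, 8.13 for moderate and 4.10 for genes above background on no array, and 4.80 over all genes. The abundant genes made up 71.6% of the summed signal of all genes and the moderate ones 20.8%. The 30 highest genes held 8.83%, 7.18% and 8.60% of the summed signal on the 3 arrays, and the 100 highest 20.6%, 18.1% and 20.1%.

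**Figure D1:**
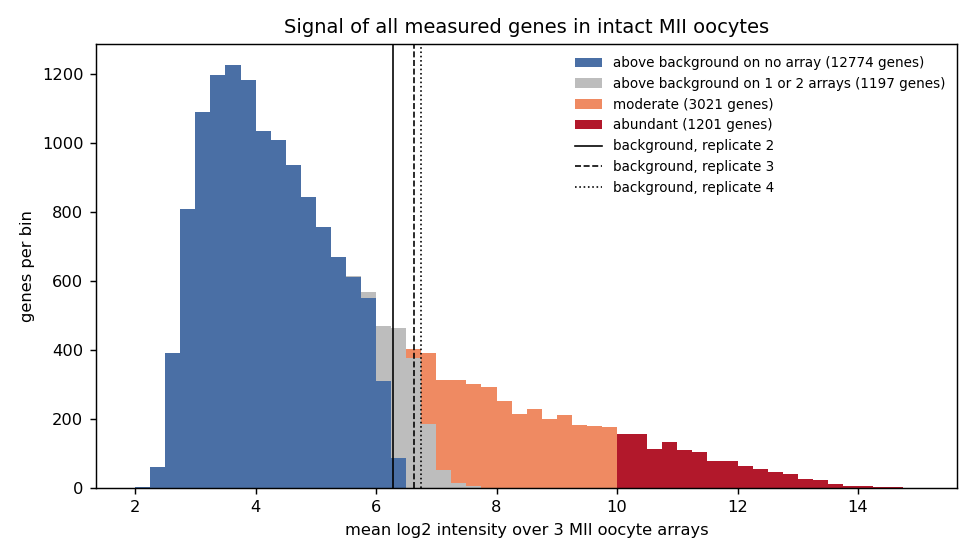
Number of genes (vertical axis) by mean log2 intensity over the 3 MII oocyte arrays (horizontal axis, bins of equal width), stacked by class, with the background level of each array as a vertical line. Genes above background on no array (12774) form 1 broad peak, with a median of 4.10, and the 1201 abundant genes form the right-hand tail with no gap at the limit of 10.

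The limits cut a continuous distribution. Just inside the limit of 10 lay Mis18a, at 647, 703 and 2368, and AU015836, at 827, 923 and 1417. Just outside lay Mamdc2, at 1139, 797 and 1177, and Espl1, which encodes separase, at 1038, 936 and 1098. The lowest genes called moderate were Luc7l2, at 82.6, 104 and 113, and Srpk3, at 82.6, 102 and 121. The highest genes above background on no array were Fbxw14, at 78.0, 91.6 and 103, and Fbxl4, at 74.7, 96.0 and 101.

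Genes of the meiotic spindle, chromatin and RNA handling stood beside oocyte-restricted genes at the very top. Spin1, which encodes spindlin, a reader of histone H3 and a protein of the meiotic spindle, was highest on every array, at 32535, 17504 and 32029 (mean log2 14.68 ± 0.51). Rbbp7, a histone-binding subunit of several chromatin complexes, read 27286, 13949 and 26253 (mean log2 14.39 ± 0.54). Pabpn1, the nuclear poly(A)-binding protein, read 24986, 13120.2 and 25707 (mean log2 14.31 ± 0.55). These genes held 3 of the first 4 places on each array. Pttg1 encodes securin, the inhibitor of separase, and read 22697, 14488 and 22773 (mean log2 14.26 ± 0.38). Bcl2l10, a BCL2-family gene of the ovary, read 23724, 12867 and 22695 (mean log2 14.22 ± 0.49), and Ywhab, a 14-3-3 protein, read 24814, 12450.3 and 22074 (mean log2 14.21 ± 0.53). Oosp1, oocyte-secreted protein 1, read 19936, 11637 and 20771 (mean log2 14.04 ± 0.47). Bpgm, the bisphosphoglycerate mutase, followed at 20376, 11252 and 20329 (mean log2 14.03 ± 0.49), then Obox2 at 18588, 12314 and 17628 (mean log2 13.96 ± 0.32) and Lsm14b, an RNA-binding protein of mRNA storage particles, at 18697, 10923 and 19667 (mean log2 13.96 ± 0.47). These 10 genes were among the 30 brightest on every array. Below Spin1 the places of several changed, with Pttg1 at rank 6, 2 and 4, though Rbbp7 stood above Pabpn1 on each array. Means of neighbours differed by less than their SDs. These SDs also hold the lower signal of all 30 genes on replicate 3, so they do not measure the difference between 2 genes. The places below Spin1 are not taken as resolved.

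The next 20 genes covered many functions. Bub1b, a kinase-like protein of the spindle checkpoint, read 16805, 10279 and 15446 (mean log2 13.76 ± 0.38), and Mad2l1, its partner in the checkpoint complex, read 11804, 9509 and 11672 (mean log2 13.42 ± 0.18). Cdca5 encodes sororin, which stabilises cohesin on chromosomes, and read 14478, 9327 and 11682 (mean log2 13.51 ± 0.32). Nup62, a nucleoporin, read 15406, 11267 and 15051 (mean log2 13.75 ± 0.25). Obox5 read 14752, 10856 and 15224 (mean log2 13.72 ± 0.27) and Zbed3, a partner of the subcortical maternal complex, read 12758, 10971 and 12498 (mean log2 13.56 ± 0.12). Metabolism was represented by Ldhb, the lactate dehydrogenase B subunit, at 13550, 9359 and 14553 (mean log2 13.58 ± 0.34), by Uqcrc2, a core subunit of respiratory complex III, at 12174, 8481 and 12971 (mean log2 13.43 ± 0.33), and by Fnta, the shared alpha subunit of the farnesyl and geranylgeranyl transferases, at 16422, 9022 and 15022 (mean log2 13.67 ± 0.47).

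Several of the 20 belong to signalling and protein turnover. Ern1, the IRE1-alpha sensor of unfolded proteins in the endoplasmic reticulum, read 12916, 10571 and 14039 (mean log2 13.60 ± 0.21). Yap1, the coactivator of the Hippo pathway, read 12769.8, 9989.8 and 12401 (mean log2 13.51 ± 0.19). Klhdc2, a substrate receptor of a ubiquitin ligase, read 13852, 10607 and 13762 (mean log2 13.63 ± 0.22), and Lamb1, the laminin beta 1 chain, read 11714, 7956 and 14509.6 (mean log2 13.43 ± 0.44). Bptf, a subunit of the NURF chromatin remodeller, read 11662, 8307 and 13144 (mean log2 13.40 ± 0.34). Dtx2, a ubiquitin ligase, had the widest spread of the 30, at 14399.5, 5521 and 15908 (mean log2 13.40 ± 0.84), with rank 134 on replicate 3 against 17 and 12. Of the 30, 21 were among the 30 brightest on each array and 29 among the 100 brightest, and 18 belonged to none of the gene lists described below. All 30 were protein-coding genes.

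**Figure D2:**
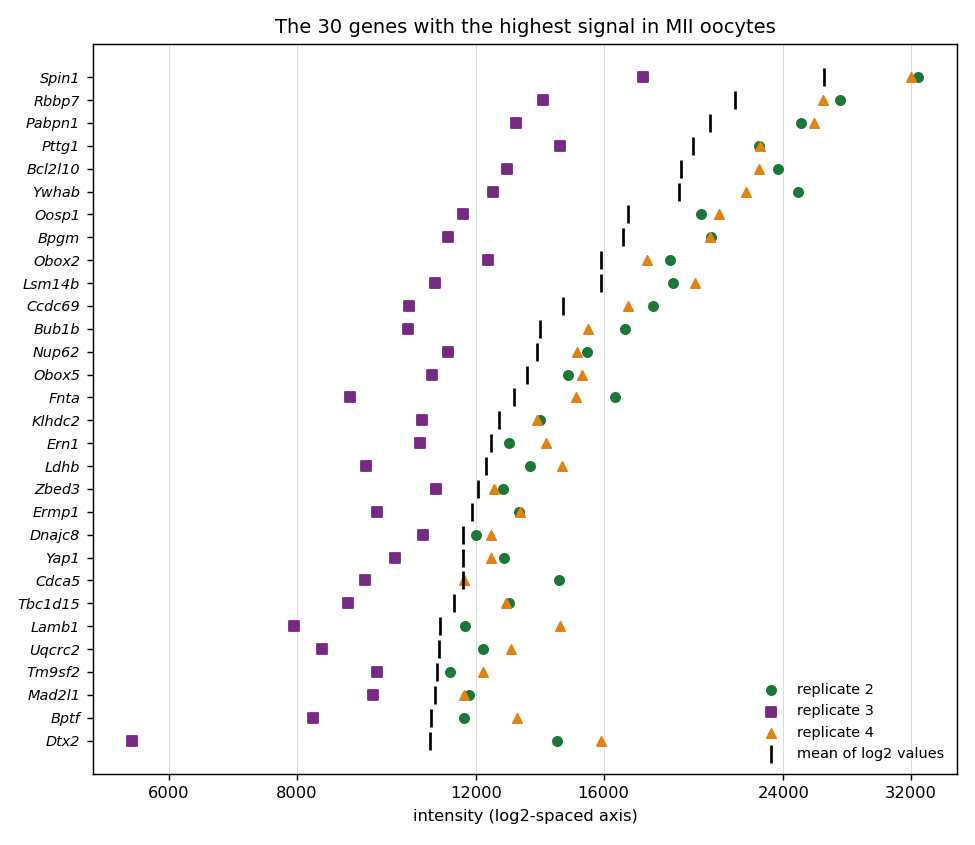
Intensity on each of the 3 MII oocyte arrays (points, log2-spaced horizontal axis) for the 30 genes with the highest mean log2 intensity, in order from the top, with the mean of the log2 values as a bar. Replicate 3 is the lowest point for all 30 genes, and Dtx2 has the widest spread (15908 on replicate 4, 5521 on replicate 3).

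Different probe sets of a gene often disagreed, so the value of a gene depends on which is read. Of the 938 abundant genes with more than 1 single-gene probe set, 666 (71.0%) also had a probe set that was not above background on any array, and 207 had all of theirs above it. The median difference between the brightest and the dimmest probe set of these genes was log2 6.60. Spin1 had probe sets at log2 14.68, 13.81, 12.73 and 6.97. Those of Pttg1 stood at 14.26, 10.71 and 3.77, and Ern1 rested on 1 probe set at 13.60 while its other 4 lay between 3.46 and 6.32. Ldhb was even by contrast, with 13.58, 12.76, 12.67 and 12.57. By the median of all probe sets, 23 of the 30 highest genes kept a mean of at least 10 and 10 stayed among the 30 highest. Of the 30 probe sets, 8 carried the suffix s_at and 5 x_at, which mark probes that may also bind related transcripts. Obox2 was read by such probe sets only, at 13.96 and 13.86, so other Obox transcripts may contribute to it.

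**Figure D3:**
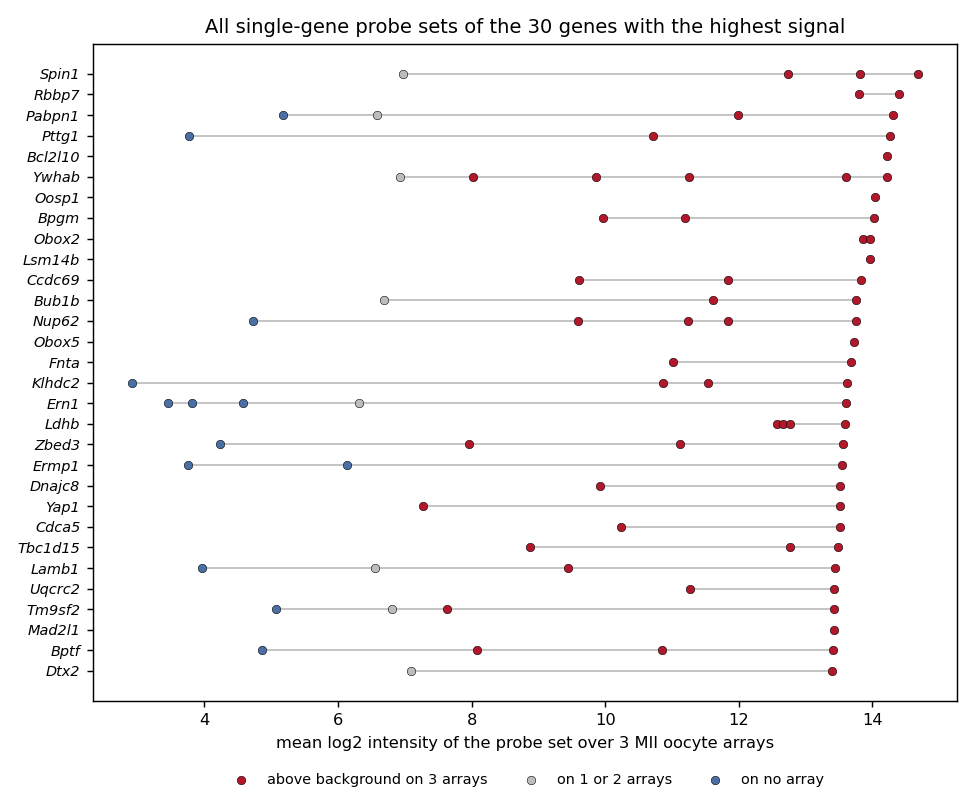
Mean log2 intensity over the 3 MII oocyte arrays (horizontal axis) of every single-gene probe set (points) of the 30 genes with the highest signal, coloured by the number of arrays on which it was above background and joined by a line per gene. Ern1 has 1 bright probe set (13.60) and 4 between 3.46 and 6.32, while the 4 of Ldhb lie between 12.57 and 13.58.

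Most oocyte markers were above background, and few genes of cumulus and granulosa cells were above the tissue-gene level. Of 14 oocyte markers, 12 were above background on all 3 arrays (8 abundant and 4 moderate), with a summed intensity of 45095, 32960 and 51021. The exceptions were Nobox, a homeobox regulator of oocyte genes, at 99.2, 89.9 and 92.8 (mean log2 6.55 ± 0.07), above background on 1 array, and Figla, the basic helix-loop-helix regulator of the zona pellucida genes, at 12.9, 13.2 and 16.9 (mean log2 3.83 ± 0.22). Of 34 measured genes of cumulus and granulosa cells, 1 was above background on all 3 arrays, Col4a1, a collagen of basement membranes, at 362, 151 and 302 (mean log2 7.99 ± 0.67), and 30 were on none. With the lower level of the Y chromosome genes as background (27.7, 25.4 and 25.3), 9 of the 34 were above it on all 3 arrays. Over all genes, 8795 of 18193 were above that lower level on all 3 arrays. The summed intensity of the 34 was 1210, 1059 and 1164. Of the 7 measured defining cumulus markers, 6 were above background on no array, among them Has2 (3.71 on the log2 scale), the hyaluronan synthase of cumulus expansion, Ptx3 (3.58) and Tnfaip6 (2.73), which are proteins of the expanded matrix. The exception, Foxl2, was above background on 1 array, at 89.4, 90.0 and 84.8 (mean log2 6.46 ± 0.05). Of the 6, Fshr was above the Y chromosome level on all 3 arrays, at 39.9, 49.5 and 40.1 (mean log2 5.42 ± 0.18). All 9 measured genes placed on the Y chromosome, 7 of them in the Y chromosome list, and all 4 defining sperm markers (Prm1, Prm2, Tnp1 and Tnp2) were above background on no array, though Prm1 was above the Y chromosome level on all 3.

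In the lists that follow, the share above background on all 3 arrays can be set beside 23.2%, and the median log2 intensity beside 4.80, over all genes. Members were chosen from textbook roles, so these counts describe the lists and set nothing apart from other genes of equal brightness. A call of above background on no array depends on the level used. Of all 12774 genes with that call, 3378 were above the Y chromosome level on all 3 arrays. Another 1284 were above it on 1 or 2 and 8112 on none. Among 448 list members with that call the split was similar, at 133, 52 and 263. Among those named below, Insr, Igf1r, Inhba, Sohlh2, Nlrp9b, Wee1, Smc1b, Ddx6, Hk2, Mvk, H3f3b, Stim1, Stim2, Igf2, Kcnq1ot1, Cd3e and Tfrc were above it on all 3, and Cd9, Pmvk and Ago2 on 1 or 2.

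Of 10 genes of the egg coat and sperm-egg fusion, 4 were abundant and 2 moderate (median 8.02). Below Oosp1 came Oosp2, a related secreted protein, at 1690.5, 1595 and 2243 (mean log2 10.83 ± 0.26), and Astl, the ovastacin protease that cleaves ZP2 after fertilisation, at 1519, 974 and 2555 (mean log2 10.61 ± 0.70). The 3 zona pellucida genes of the mouse were all above background on every array. Zp2 read 792, 2377 and 1043 (mean log2 10.29 ± 0.83), with replicate 3 highest, Zp3 read 287, 433 and 525 (mean log2 8.65 ± 0.44) and Zp1 read 125, 219 and 173 (mean log2 7.39 ± 0.41). Of the membrane proteins of fusion, none was above background on all 3 arrays. Izumo1r, which encodes Juno, the egg receptor for the sperm protein Izumo1, read 117, 70.4 and 99.3 (mean log2 6.55 ± 0.37) and was above background on 1 array. Cd81, a tetraspanin, read 82.7, 66.0 and 105 (mean log2 6.38 ± 0.34), and Cd9, the tetraspanin that mouse eggs need for fusion, was above background on no array, at 22.4, 23.2 and 26.3 (mean log2 4.58 ± 0.12), on its only probe set.

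The best-known signals from the oocyte to its cumulus cells were above background on every array. Gdf9 read 7225, 5869 and 8307 (mean log2 12.79 ± 0.25), Bmp15 read 704, 373 and 764 (mean log2 9.19 ± 0.57) and Bmp6 read 455, 352 and 396 (mean log2 8.64 ± 0.19). All are ligands of the TGF-beta family. Among receptors, Acvr1b, a type I activin receptor, read 1398, 1169 and 1879 (mean log2 10.51 ± 0.35) and Tgfbr1 read 143, 218 and 162 (mean log2 7.42 ± 0.32). Kit, the receptor for Kit ligand, was above background on 2 arrays, at 74.0, 111 and 109 (mean log2 6.59 ± 0.33). The insulin receptor Insr (5.77 on the log2 scale) and Igf1r (5.35) were above background on none, as were the ligands Inhba (5.78) and Fgf8 (3.51). In all, 5 of the 11 genes were above background on all 3 arrays (median 6.59).

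Of 20 oocyte transcription factors, 5 were abundant and 6 moderate (median 7.43). Obox2 and Obox5 led, followed by Tcl1, a cofactor of AKT kinases that was placed in this list, at 5573, 4201 and 6187 (mean log2 12.36 ± 0.29). Foxo3, which holds primordial follicles dormant, read 3605, 3539 and 4317 (mean log2 11.89 ± 0.16) and Sall4 read 3163, 2683 and 3601 (mean log2 11.61 ± 0.21). Among regulators of early follicles, Lhx8 read 652, 707 and 769 (mean log2 9.47 ± 0.12), while Sohlh1 (3.81 on the log2 scale) and Sohlh2 (5.82) were above background on no array. Pluripotency factors differed from each other. Pou5f1 read 495, 356 and 435 (mean log2 8.73 ± 0.24) and Sox2 read 264, 111 and 181 (mean log2 7.44 ± 0.63), whereas Nanog was above background on no array, at 7.61, 8.98 and 7.94 (mean log2 3.03 ± 0.12).

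The subcortical maternal complex lies under the oocyte membrane and is needed for the first cleavages. With the Nlrp genes, 14 of 16 members (87.5%) were above background on all 3 arrays, 9 of them abundant (median 10.42). Besides Zbed3, the complex was represented by Ooep at 1179, 1070.4 and 2027 (mean log2 10.42 ± 0.50), Nlrp5, also called Mater, at 505, 861 and 909 (mean log2 9.52 ± 0.47), Tle6 at 389.6, 373 and 624 (mean log2 8.81 ± 0.41) and Padi6, a peptidylarginine deiminase, at 475, 239.8 and 361 (mean log2 8.43 ± 0.50). Khdc3, another component, was above background on no array, at 39.9, 42.2 and 51.8 (mean log2 5.47 ± 0.20), on its only probe set, but was above the Y chromosome level on all 3, as were all 16 members. Of the Nlrp genes, Nlrp4a was brightest, at 8412, 6224 and 7907 (mean log2 12.86 ± 0.23). Nlrp4b read 2769, 2954 and 2937 (mean log2 11.49 ± 0.05), Nlrp4f read 1952, 1831 and 1885 (mean log2 10.88 ± 0.05) and Nlrp4e read 3182, 1321 and 2477 (mean log2 11.09 ± 0.65), and Nlrp9b was above background on no array, at 29.5, 45.5 and 36.0 (mean log2 5.19 ± 0.31). These genes are close copies of each other, so their probe sets may share signal. Cfl1, cofilin, whose activity the complex controls, had the widest spread of the list, at 2472, 695 and 4111 (mean log2 10.91 ± 1.32).

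Of 39 further maternal-effect and oocyte-restricted genes, 21 were abundant and 7 moderate (median 10.08). Accsl read 12409.9, 7856 and 12480.3 (mean log2 13.38 ± 0.38). Btg4, the adaptor that brings the CCR4-NOT deadenylase to maternal mRNA, read 11003, 6998 and 10210.4 (mean log2 13.17 ± 0.35) and Rnf114, a ubiquitin ligase, read 9869.6, 7117 and 9683 (mean log2 13.10 ± 0.26). Zar1, an RNA-binding protein of the oocyte cytoplasm, read 4632, 4321 and 5116 (mean log2 12.19 ± 0.12). H1f8, the oocyte linker histone, read 2318, 1859 and 2190.2 (mean log2 11.05 ± 0.17). Dppa3, also called Stella, which protects the maternal genome from demethylation, read 1545, 1609 and 1727 (mean log2 10.67 ± 0.08). Plat, the tissue plasminogen activator whose stored mRNA is translated at maturation, read 6361, 4269.8 and 7107 (mean log2 12.50 ± 0.39). Members of small oocyte families read over a range, with Oog3 at 13.08 and Oog4 at 9.93 on the log2 scale, and Tcl1b1, Tcl1b3 and Tcl1b4 at 12.07, 10.08 and 10.07. Some textbook oocyte genes were above background on no array, each on its only probe set. Among these were Ybx2, the MSY2 protein that packages stored mRNA, at 57.4, 64.4 and 63.6 (mean log2 5.95 ± 0.09), Uchl1, a ubiquitin hydrolase, at 49.6, 66.5 and 75.7 (mean log2 5.98 ± 0.31), Gja4, the connexin 37 of the oocyte gap junctions, at 53.9, 44.1 and 83.5 (mean log2 5.87 ± 0.47), and Gpr3, the receptor that keeps cAMP high before maturation, at 68.1, 32.2 and 73.2 (mean log2 5.76 ± 0.66). All 4 were above the Y chromosome level on every array, so their call turns with the background used.

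The machinery of the metaphase II arrest was bright in parts. Of 47 genes, 17 were abundant and 11 moderate (median 8.43). In the MOS pathway, Mos, the kinase at its head, read 5734, 2229 and 7361 (mean log2 12.15 ± 0.91) and Map2k1, its target kinase MEK1, read 2219.9, 1876 and 2367 (mean log2 11.07 ± 0.17). Among the proteins of the anaphase switch below securin, Cdc20, the activator of the anaphase-promoting complex, read 14342, 5745 and 12008 (mean log2 13.28 ± 0.70) and Espl1, separase itself, lay at the limit between the classes. Fbxo43, which encodes EMI2, the inhibitor that holds the complex off until fertilisation, was above background on 2 arrays, at 87.0, 114 and 77.0 (mean log2 6.51 ± 0.29).

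The kinases of the division were split. Aurkc, the Aurora kinase of meiosis, read 9828, 8654 and 10596 (mean log2 13.24 ± 0.15) and Aurka read 306, 185 and 293 (mean log2 7.99 ± 0.40), while Aurkb was above background on no array, at 16.1, 14.6 and 23.6 (mean log2 4.15 ± 0.37). The chromosomal passenger proteins that work with them also differed, with Cdca8, borealin, at 10996, 8759 and 11556 (mean log2 13.34 ± 0.21), Incenp at 3157, 4117 and 3488 (mean log2 11.80 ± 0.19) and Birc5, survivin, at 184, 300.4 and 230.1 (mean log2 7.87 ± 0.35). Wee2, the oocyte form of the kinase that inhibits CDK1, read 10257, 4569.5 and 9683 (mean log2 12.91 ± 0.65), while Wee1 was above background on no array, at 42.5, 38.2 and 32.6 (mean log2 5.23 ± 0.19). Mastl, the Greatwall kinase, read 5054, 2558 and 4584 (mean log2 11.93 ± 0.53). Ccnb2, cyclin B2, read 1645, 1679 and 1854 (mean log2 10.75 ± 0.09), Ccna2 read 2442, 2031 and 2475 (mean log2 11.17 ± 0.16), and Cks2, a CDK subunit, read 8813, 8654 and 9171 (mean log2 13.12 ± 0.04). Cdk1 and Plk1, both known to drive the division, were above background on no array, at 29.7, 28.1 and 32.0 (mean log2 4.90 ± 0.09) and 25.7, 27.5 and 34.3 (mean log2 4.86 ± 0.22), each on its only probe set. Cdk1 was above the Y chromosome level on all 3 arrays and Plk1 on 2.

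Of 55 spindle and kinetochore genes, 12 were abundant and 22 moderate (median 7.98). After Bub1b and Mad2l1 came Prc1, which bundles microtubules of the midzone, at 5301, 4968 and 5826 (mean log2 12.39 ± 0.12). Kif23, a kinesin of cytokinesis, read 5768, 3253 and 5952 (mean log2 12.23 ± 0.49). Kif11, the motor that separates spindle poles, read 1024, 991 and 1309 (mean log2 10.10 ± 0.22) and Tpx2, an activator of Aurora A, read 2613, 1027 and 2356 (mean log2 10.85 ± 0.74). Of the outer kinetochore, Cenpe read 2950.1, 2714 and 3206 (mean log2 11.53 ± 0.12), Nuf2 read 2452, 1580.3 and 2658 (mean log2 11.09 ± 0.40) and Ndc80, its partner, read 296, 537 and 437 (mean log2 8.68 ± 0.44). Sgo2a, a shugoshin that protects centromeric cohesin, read 252, 269 and 299.6 (mean log2 8.09 ± 0.13), and the meiotic cohesins Rec8 (4.08 on the log2 scale), Stag3 (3.03) and Smc1b (5.13) were above background on no array. Hmmr, a spindle assembly protein, was the least even member, at 169, 1082 and 192 (mean log2 8.35 ± 1.50), with replicate 3 far above the others. Of 13 tubulins, Tube1, epsilon tubulin, at 2639.8, 1107 and 2381 (mean log2 10.90 ± 0.69), and Tubb2a, at 964, 1408 and 1556 (mean log2 10.33 ± 0.36), were abundant, 4 were moderate and 7 were above background on no array (median 5.67).

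Of 44 genes of RNA storage, polyadenylation and decay, 13 were abundant and 14 moderate (median 7.70). Of the storage proteins, Lsm14b was highest, with Lsm14a at 11260.3, 9456 and 10448 (mean log2 13.34 ± 0.13) below it and the Y-box protein Ybx1 at 7593, 5874 and 8299 (mean log2 12.81 ± 0.26). Of the deadenylases of the CCR4-NOT complex, Cnot7 read 12434, 7422 and 11372 (mean log2 13.31 ± 0.40), Cnot6l read 6607, 4774 and 6819.8 (mean log2 12.55 ± 0.28) and Cnot8 read 1204, 1028 and 1145 (mean log2 10.13 ± 0.12). Dcp1a, the decapping cofactor, read 8189.6, 4892 and 7396 (mean log2 12.70 ± 0.39), and its catalytic partner Dcp2 read 110.1, 351 and 193 (mean log2 7.61 ± 0.84), with replicate 3 highest. Dazl, which drives translation of maternal mRNA, read 851, 830.5 and 817 (mean log2 9.70 ± 0.03). Of the CPEB proteins, which direct cytoplasmic polyadenylation, Cpeb4 read 987, 910.2 and 938 (mean log2 9.88 ± 0.06) and Cpeb1, the form best known in oocytes, was above background on 1 array, at 78.8, 74.2 and 101 (mean log2 6.39 ± 0.24). Cpeb2 (2.96 on the log2 scale) and Ddx6, an RNA helicase of storage particles (6.01), were above background on none.

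Translation factors and ribosomal proteins were above background in part. Of 35 initiation and elongation factors, 8 were abundant and 12 moderate (median 7.14), led by Eif3i at 9256, 6724 and 9296 (mean log2 13.02 ± 0.27) and Eif4g2 at 6524, 5381 and 6683 (mean log2 12.59 ± 0.17). Eif4e, the cap-binding protein, read 3663, 2486 and 3594 (mean log2 11.64 ± 0.32). Of 78 cytosolic ribosomal protein genes, 44 had a probe set assigned to them alone, and 3 of these were abundant and 19 moderate (median 6.81). They were Rps28 at 6023, 3465 and 7558 (mean log2 12.40 ± 0.58), Rpl13a at 1303, 1151 and 1419 (mean log2 10.33 ± 0.15) and Rps2 at 1247, 880.4 and 1368 (mean log2 10.16 ± 0.34). Ribosomal protein genes have many processed copies in the genome, so the probe sets assigned to 1 gene are a selected share of the family.

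The mouse oocyte is known to use pyruvate and to depend on cumulus cells for products of glycolysis and for cholesterol. Of measured genes, 51.4% of oxidative phosphorylation and 42.9% of glycolysis and lactate use were above background on all 3 arrays, against 23.2% over all genes. Of 70 oxidative phosphorylation genes encoded in the nucleus, 13 were abundant, 23 moderate and 28 above background on no array (median 7.10). Below Uqcrc2 came Cycs, cytochrome c, at 4503, 4257 and 4334 (mean log2 12.09 ± 0.04), and Cox5a at 4535, 3419 and 4306 (mean log2 11.99 ± 0.22), a subunit of cytochrome oxidase. The only gene of the mitochondrial genome measured here, ND5, read 10395, 3927 and 8140. Of 21 genes of glycolysis and lactate use, 3 were abundant and 6 moderate (median 6.34). Ldhb led, with Pgk1, phosphoglycerate kinase, at 1399, 1022 and 1409 (mean log2 10.30 ± 0.26), and the glucose transporter Slc2a1, at 1677, 636 and 1422 (mean log2 10.17 ± 0.75), while the hexokinases Hk1 (3.70 on the log2 scale) and Hk2 (6.21) were above background on no array. Of 17 genes of cholesterol synthesis, 2 were abundant and 2 moderate (median 5.82). The share above background on all 3 arrays was 23.5%, near the 23.2% of all genes. Hmgcs1, the synthase at the head of the pathway, read 12090.1, 6350.2 and 12906 (mean log2 13.28 ± 0.57), Hsd17b7 read 836, 1227 and 1398 (mean log2 10.14 ± 0.39) and Idi1 read 969, 985 and 998 (mean log2 9.94 ± 0.02), and Mvk, Pmvk, Mvd and Fdps were above background on no array.

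Chromatin and cell-structure genes were above background in most cases. Of 44 genes of histones and chromatin, 13 were abundant and 16 moderate (median 8.53). Npm1, nucleophosmin, read 5857, 5863 and 6210.5 (mean log2 12.54 ± 0.05), and Hmgn1, a nucleosome-binding protein, read 5209, 4988 and 4716 (mean log2 12.28 ± 0.07). Ezh2 and Eed, subunits of the Polycomb complex that methylates histone H3 lysine 27, read 5352, 3376 and 5138 (mean log2 12.14 ± 0.37) and 3601, 4289.8 and 3509 (mean log2 11.89 ± 0.16). H3f3a and H3f3b, the genes of histone H3.3, were above background on no array, at 3.83 and 5.11 on the log2 scale. Of 36 genes of the actin cortex, 13 were abundant and 11 moderate (median 8.83), led by Rdx, radixin, at 10329.8, 6356 and 9431 (mean log2 13.06 ± 0.37) and Rac1, a small GTPase, at 6710.0, 5084 and 7155 (mean log2 12.61 ± 0.26). Arpc2, a subunit of the Arp2/3 complex, read 6626, 3891 and 6817 (mean log2 12.45 ± 0.46), while Arpc4 (4.25 on the log2 scale) and Arpc1a (3.48) of the same complex were above background on no array.

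Of 35 genes of the endoplasmic reticulum and secretion, 12 were abundant and 14 moderate (median 8.52). Srp14, of the signal recognition particle, read 7969, 6612 and 7657 (mean log2 12.85 ± 0.14), and the catalytic subunits of oligosaccharyltransferase read 6005, 3748 and 6166 (mean log2 12.34 ± 0.40) for Stt3b and 4031, 2268 and 3839.5 (mean log2 11.68 ± 0.46) for Stt3a. Of 23 genes of calcium handling and egg activation, 3 were abundant and 6 moderate (median 6.17). Atp2a2, the SERCA2 pump that refills calcium stores, read 9508, 6964 and 9954 (mean log2 13.09 ± 0.28). Slc39a10, a zinc importer, read 6501, 5594 and 6751 (mean log2 12.61 ± 0.14). Itpr2, an IP3 receptor, read 3220.3, 4267 and 3903 (mean log2 11.88 ± 0.21), and Stim1 (5.38 on the log2 scale) and Stim2 (5.25), the store sensors, were above background on no array. Of 38 genes of the proteasome and ubiquitin pathway, 8 were abundant and 13 moderate (median 7.002), with Cul1, the cullin of SCF ligases, at 7944, 7399 and 8059.5 (mean log2 12.93 ± 0.07) and Psmb3 the least even of the leading members, at 5458, 1594 and 5658 (mean log2 11.84 ± 1.04). Of 26 antioxidant and stress proteins, 7 were abundant and 8 moderate (median 8.09), led by Prdx2, a peroxiredoxin, at 3146, 1711 and 2795 (mean log2 11.27 ± 0.47).

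Genes of small RNA pathways, imprinted genes and genes of the early embryo had 34.6%, 26.7% and 14.3% of their measured members above background on all 3 arrays, against 23.2% over all genes. Of 26 genes of transposon control and small RNA, 1 was abundant and 8 moderate (median 5.22). The abundant gene was Dicer1, the endonuclease that makes small RNAs, at 1114, 964 and 1009.7 (mean log2 10.00 ± 0.11), next to the limit. Gtsf1, a piRNA factor, read 545, 345 and 627 (mean log2 8.94 ± 0.45) and Ddx4, the germ-cell helicase, read 344, 399.6 and 380.3 (mean log2 8.55 ± 0.11), while Ago2 was above background on no array, at 38.1, 19.4 and 39.7 (mean log2 4.95 ± 0.58). Of 30 imprinted genes, none was abundant and 8 were moderate (median 4.56), among them Ube3a at 732, 782 and 987 (mean log2 9.69 ± 0.23), Gnas at 854, 323 and 708 (mean log2 9.18 ± 0.74) and Grb10 at 539, 326 and 593 (mean log2 8.88 ± 0.46). Igf2 (5.92 on the log2 scale), Kcnq1ot1 (5.21) and Cdkn1c (3.69) were above background on no array. Of 33 genes of zygotic and 2-cell stages, 14 were measured, and 12 of these were above background on no array (median 4.59). The abundant one was Tfap2c, a transcription factor, at 2873, 2824 and 2877 (mean log2 11.48 ± 0.01).

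**Figure D4:**
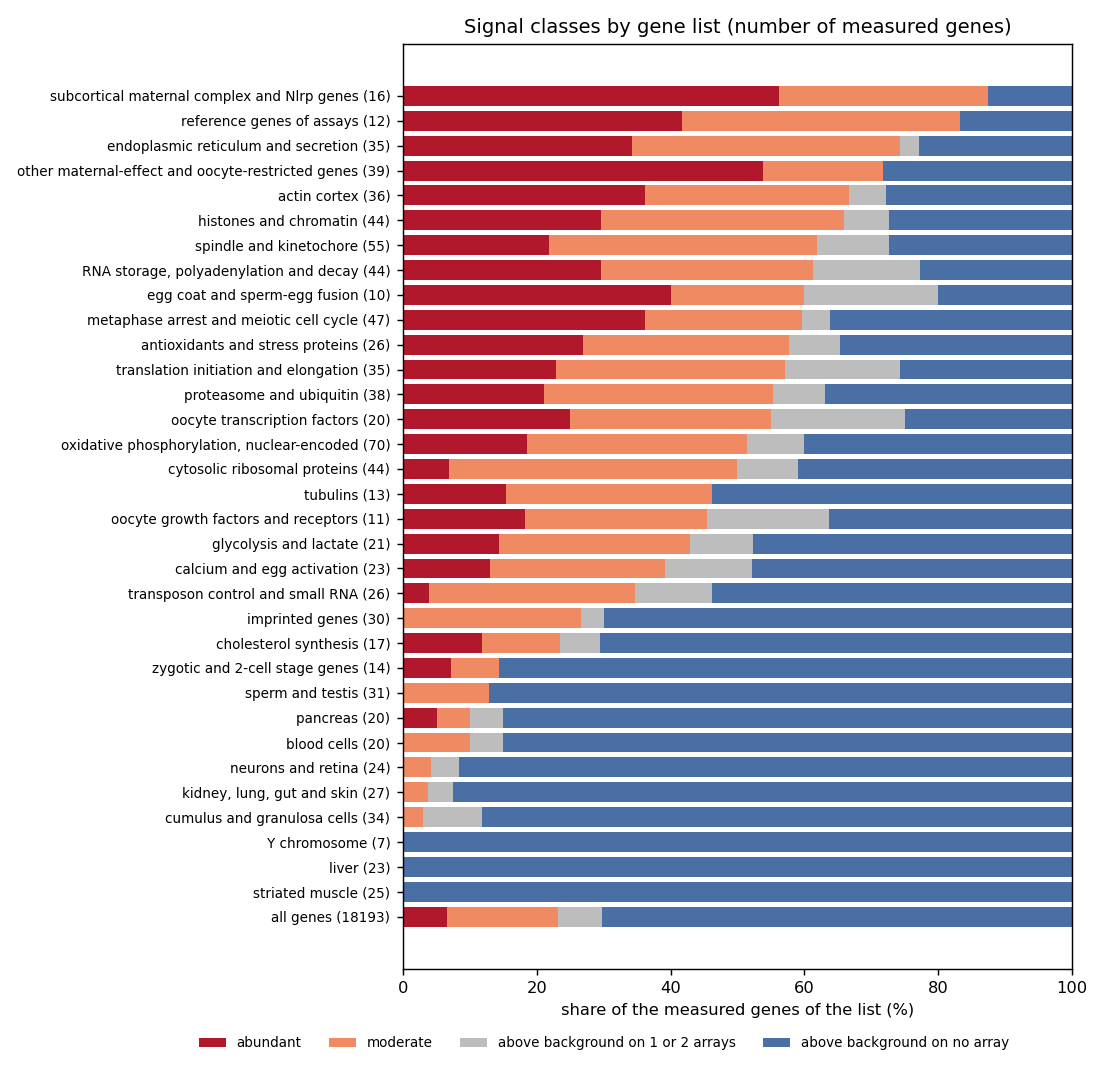
Share of the measured genes of each list (horizontal axis, percent; number measured in brackets) in the 4 signal classes, with lists ordered by the share above background on all 3 arrays and all 18193 genes in the bottom bar. The list of the subcortical maternal complex is at the top (14 of 16 above background on all 3 arrays), and liver, striated muscle and Y chromosome genes are all in the lowest class.

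The 7 tissue lists set the background level, so their low counts follow from the rule. Their bright members, given below, also raise that level, by an amount that was not tested. Of the 170 genes, 1 was abundant, Cpa1, pancreatic carboxypeptidase A1, at 4661, 3214 and 4275 (mean log2 11.97 ± 0.28) on its only probe set, and 9 were moderate. Of these, Sycp3 read 671, 646 and 713 (mean log2 9.40 ± 0.07) and Sycp2 read 191, 277 and 211 (mean log2 7.80 ± 0.28). They are synaptonemal complex proteins of meiotic prophase in both sexes, placed in the testis list. Odf2, of sperm outer dense fibres and of centrioles, read 949, 417 and 647 (mean log2 9.31 ± 0.59). Ms4a1, the B-cell antigen CD20, read 940.1, 905 and 1113 (mean log2 9.94 ± 0.16), and Vil1, villin, read 416, 286 and 341 (mean log2 8.42 ± 0.27). Cd8a, a T-cell marker, read 122, 577 and 121 (mean log2 7.67 ± 1.30), again with replicate 3 alone high. The others were Sycp1, also of the synaptonemal complex (6.94 on the log2 scale), Cpb1, pancreatic carboxypeptidase B1 (6.82), and Mbp, myelin basic protein (6.66). Of other T-cell markers in the list, Cd4 was above background on 2 arrays, at 120, 99.1 and 129 (mean log2 6.85 ± 0.20). Cd3e (6.10 on the log2 scale), which T cells also carry, was above background on no array.

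Genes used to normalize assays spanned the classes. Of 12 measured, 5 were abundant and 5 moderate (median 9.25). Ywhaz, a 14-3-3 protein, read 2467, 1530.2 and 2363 (mean log2 11.02 ± 0.38), H2az1, a histone variant, read 2216, 1366 and 1719 (mean log2 10.76 ± 0.35) and Sdha, of succinate dehydrogenase, read 1436, 1254 and 1459 (mean log2 10.43 ± 0.12). Actb, beta-actin, was only moderate, at 222, 128 and 342. Gusb (3.33 on the log2 scale) and Tfrc (5.75) were above background on no array.

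Promoters of brighter genes held more CpG. The windows were those of protein-coding genes, of which 13268 of 16054 (82.6%) had one. The median number of CpG per 300-base window was 24 for abundant, 23 for moderate, 22 for genes above background on 1 or 2 arrays and 14 for genes above it on none, against 18 over all. Across 10 bins of signal the median went from 7 to 24. Windows with at most 5 CpG made up 9.16% of abundant and 26.2% of the genes above background on no array. With the window holding the most CpG for each gene, the medians were 26 and 15. The TATAAA motif, searched on both strands, occurred in 5.90% of abundant and 11.5% of the lowest class, against 9.68% over all.

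**Figure D5:**
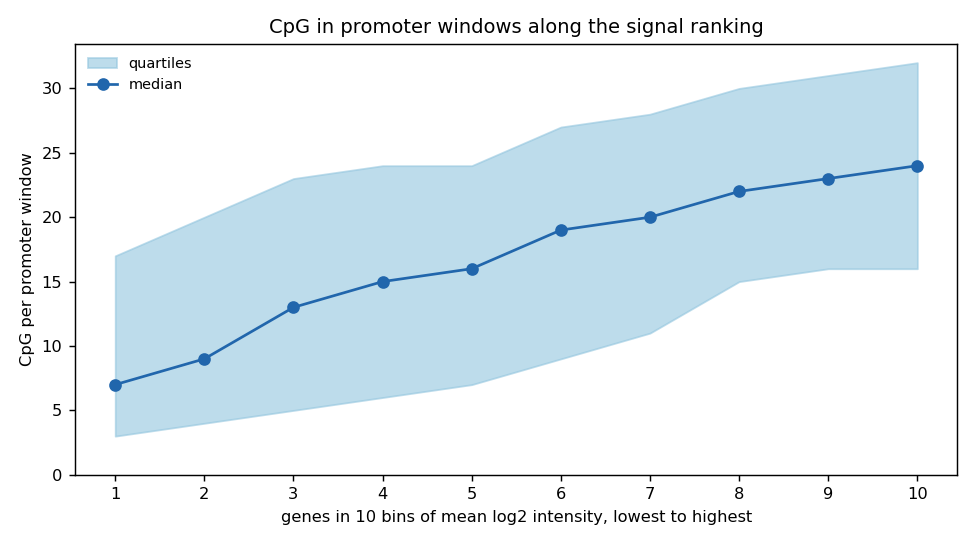
Number of CpG per 300-base promoter window (vertical axis; line for the median, shaded band for the quartiles) in 10 bins of mean log2 intensity from the lowest to the highest (horizontal axis). The median goes from 7 in the lowest bin to 24 in the highest.

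Genes of the 5 oocyte lists together had fewer CpG, though the lists differed. Of their 63 members above background on all 3 arrays in the promoter set, 54 had a window, with a median of 5 CpG, and 30 (55.6%) had at most 5, against 9.16% of abundant and 6.81% of moderate genes. In the list of the subcortical maternal complex the median was 2 over 13 windows, with none in Nlrp4e, 1 in Nlrp4b and Nlrp5, and 2 in Nlrp4f and Padi6, but 15 in Ooep and 18 in Tle6. The medians of the other lists were 4.5 over 24 windows for further maternal-effect genes, 5 over 4 for the egg coat, 11 over 9 for transcription factors and 30.5 over 4 for growth factors and receptors, the last above the 24 of abundant genes. Btg4, Oog3 and Omt2b had 1 each, and Oosp1, Oosp2, Astl and H1f8 had 5 each. Spindle and kinetochore genes above background had a median of 25 over 30 windows, RNA storage genes 31 over 25 and chromatin genes 29 over 28. The E-box pattern CANNTG, which reads the same on both strands and can share bases with CCAAT (as in CCAATTG), occurred in 47 of the 54 oocyte windows (87.0%) and in 66.5% of all windows, and in all 6 windows printed above. CCAAT occurred in 26 of the 54 (48.1%) and in 38.2% of all. These lists were drawn up by known oocyte function, some members are copies of each other, and the counts are descriptions of sequence with no test.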

How the data were processed

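The samples were grouped by their titles, and the 3 MII oocyte arrays were used. The authors deposited 1 linear intensity per probe set and array, for 45101 probe sets. Per the submitters' processing notes these were made with RMA, a method of background correction, normalization and probe summary. As deposited, the 3 arrays do not share 1 distribution, with 95th percentiles of 680, 568 and 711 on replicates 2, 3 and 4. The RMA version and settings and the build of the platform annotation are not stated in the labels or files used here. The plan had assumed log2 values, so log2 of the deposited intensity was taken first. Besides 64 controls, 932 probe sets were listed with several genes and 9160 with none, and no gene was named from these. Of the 34945 with 1 gene, 34741 matched the RefSeq gene table (GRCm38.p6) by gene ID.

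Python 3.11.15 with pandas 2.3.3, numpy 2.4.6 and matplotlib 3.10.9 was used, and the class calls were tested on simulated data. No statistical test was run, and 3 arrays limit the precision of each mean. Named genes were taken from the 30 highest, the 4 brightest members and up to 4 members above background on no array of each of 33 gene lists, abundant tissue-list members and the 2 genes on each side of the class limits. Other list members named, ND5, the families and single promoter counts were chosen after their values were seen. Of 1095 list entries, 158 were not measured. The members and lists were chosen with earlier results of these data known. Alternatives were quantile or median scaling, other background levels, other probe set rules and leaving out each replicate; the promoter window with the most CpG and genes with 1 probe set were added after seeing the data.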

Additional observations from a re-analysis of the deposited data

Results flagged for a closer look

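Signal appeared in probe sets outside the order of genes. Of the 932 probe sets listed with several genes, 71 reached the abundant class, and of the 9160 listed with no gene, 67 did. Of the 34945 single-gene probe sets, 1430 reached it. The 3 brightest of those with no gene read 17331, 10968 and 17228, then 14675, 11396 and 14513, then 12332, 9421 and 14363 on replicates 2, 3 and 4, which lies within the range of the 30 highest named genes. The array's control probe set for the B2 short interspersed repeat had a mean log2 intensity of 14.03 (19860, 11606 and 20297), and that for the B1 repeat read 3232, 924 and 2933.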

How the results depend on the processing

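The number of genes above background on all 3 arrays (4222) moved by over 1.5 times with another background level and with another probe set rule, and kept within that under the other alternatives run. With the background taken from Y chromosome genes it was 8795, and the number above background on no array went from 12774 to 8112. With the median of a gene's probe sets, 2734 genes were above background on all 3 arrays, 426 were abundant in place of 1201, and 10 of the 30 highest genes remained. Without s_at and x_at probe sets 18 of the 30 remained. Leaving out 1 replicate at a time gave 4248 to 4529 genes above background on the remaining arrays, 1169 to 1287 abundant, 12808 to 13328 above on none, and 27 to 29 of the 30 highest. Quantile and median scaling keep the order within an array, so the calls against background could not change with them. Of 33 lists, 20 moved by more than 1.5 times in their count above background with the Y chromosome level, 10 with the median rule, 5 at the 75th percentile of all probe sets and 5 without s_at and x_at probe sets. Of 459 genes picked for naming, 253 were counted as moved with the median rule. Without s_at and x_at probe sets, 71 of 446 were. At most 1 was counted as moved under any other alternative. Without replicate 3 the cumulus and granulosa list went from 1 to 2 members above background, and without replicate 4 the list of neurons and retina did. Among genes with 1 probe set, 12.8% were above background on all 3 arrays, against 23.2% of all. No paired analysis was possible because the results come from no test. Low intensities sit on a background set by the tissue genes, so a weak transcript and none cannot be told apart below it.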

Other observations

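Families defined by the start of the gene symbol, with at least 10 members measured, differed in how many members were abundant, against 6.6% of all genes. Nucleoporins, which form the nuclear pore, had 9 of 19 abundant, with Nup37 at a mean log2 intensity of 12.55, Nup85 at 11.80 and Nup54 at 11.73 after Nup62 at 13.75. Symbols starting with Mcm had 5 of 10. Of these, Mcm4 (12.01), Mcm7 (11.82), Mcm2 (11.26) and Mcm6 (10.55) are subunits of the replicative helicase, which is next used in the zygote, and Mcm3ap (10.22) is not. The remaining subunits of the helicase were lower, with Mcm5 moderate (7.28) and Mcm3 above background on no array (5.37). The Cnot deadenylase complex had 4 of 10, the Naa genes of protein N-terminal acetylation 4 of 10, and Pramel genes 4 of 11, led by Pramel32 at 11.96. Symbols starting with Med, most of them Mediator subunits, had 8 of 31, led by Med20 at 12.68. Large families read otherwise, with 10 of 336 Zfp genes, 11 of 347 Slc genes, none of 73 Cyp genes and none of 73 symbols starting with Il. Families were chosen after their counts were seen, and no test was run.

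Of 1355 long noncoding RNA genes, 15 were abundant and 3.91% were above background on all 3 arrays, against 25.2% of 16468 protein-coding genes. The brightest were C86187 (10793, 4325 and 9433 on replicates 2, 3 and 4), Platr30 (7157, 4336 and 7890) and AA545190 (5879, 3994 and 5260). Of 617 X-linked genes 20.3% were above background on all 3 arrays, and of 17404 autosomal genes 23.5%.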
